A study of Mus musculus with 4 samples.

Results

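The Hox cluster genes were read in 4 poly(A) RNA libraries of cultured mouse AGM, the aorta-gonad-mesonephros part of the embryonic trunk in which blood stem cells arise. Members were all rows of the count tables named Hox followed by a cluster letter (a to d) and a paralog number, which gave 39 of 49997 genes. The Hoxa cluster held 11 of them, Hoxb 10, Hoxc 9 and Hoxd 9. All explants were of C57BL/6J genotype and were cultured for 48 hours on a filter between gas and medium, in MyeloCult with hydrocortisone. The 2 untreated libraries received no further agent. The 2 CCCP libraries came from explants kept with 5 µM CCCP, a protonophore that dissipates the proton gradient of the mitochondrial inner membrane. The age is given as E10.5 (days after conception) in the design and as a mix of E10.5 with E11.5 in the growth protocol. No label says how many embryos an explant library holds, or whether the libraries of a group came from separate cultures, so p-values measure only the spread between these samples.

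Hox genes encode homeodomain transcription factors that give cells of the embryo a position along the head to tail axis. They lie in clusters in which the order of the genes matches the order of their domains. Genes with low paralog numbers are active from the hindbrain backwards, those with middle numbers in the trunk, and those with the highest numbers in the lumbosacral region, tail, limb buds and urogenital ridge. Because each cell line of descent keeps its Hox pattern, the set of active paralogs is widely read as an address of the tissue.

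Total counts ran from 37360968 to 48827826 per library, and replicate 1 was the deeper library in both groups. The labels name the cell type as haematopoietic stem cells and the design speaks of cells positive for c-kit, while the extraction protocol takes RNA from explants. Kit, the gene of that marker, had 47.6 to 63.2 CPM (counts scaled to a common library total, with TMM factors) and the blood gene Ptprc 3.39 to 6.85 CPM. All 6 blood markers summed to 74.5 to 94.7 CPM, against 452 to 595 CPM for 8 endothelial genes, 2400 to 3843 CPM for 8 genes of lateral mesenchyme and 233 to 324 CPM for 8 genes of the mesonephros, the embryonic kidney. Hepatic markers (Alb, Afp, Ttr, Apoa1 and Hnf4a) summed to 1295 and 767 CPM in the untreated libraries and to 5.46 and 61.3 CPM in the CCCP libraries, and their part in the group differences of Hox genes was not tested. In bulk RNA, fewer cells of a type and less RNA per cell cannot be told apart, and this holds for every Hox value given here.

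Hox transcripts made up between 0.182% and 0.201% of the counts, or 68378 to 98383 counts per library. All 39 genes had at least 1 count somewhere, and 38 passed the filter on low counts. Hoxb13, the remaining member, had 0, 14, 2 and 0 counts in untreated replicates 1 and 2 and CCCP replicates 1 and 2. Levels are compared between genes as CPM per kilobase of exon, called the level below, since a long gene collects more reads at the same number of transcripts.

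Hoxb9 stood above all other Hox genes in every library. This trunk gene (chromosome 11, 96271330 to 96276595, mm10) had levels of 119 and 131 CPM per kilobase without CCCP and 153 and 138 with it. Its lowest value lay above the highest value of Hoxb8, the next gene in the order, which read 58.8, 39.7, 59.4 and 45.5 in the same 4 libraries. Hoxb8 (chromosome 11, 96279401 to 96285325) is a neighbour of Hoxb9 in the cluster. Hoxb8 varied with the replicate number, higher in replicate 1 of each group. Next in the order were Hoxb6, at a mean of 47.4 ± 3.30 (SD over the 4 libraries), and Hoxc8, at 38.0 ± 5.26. Further down, ranks say little, because in 36 of the 38 pairs of neighbours in the order the ranges over the 4 libraries overlapped.

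**Figure D1:**
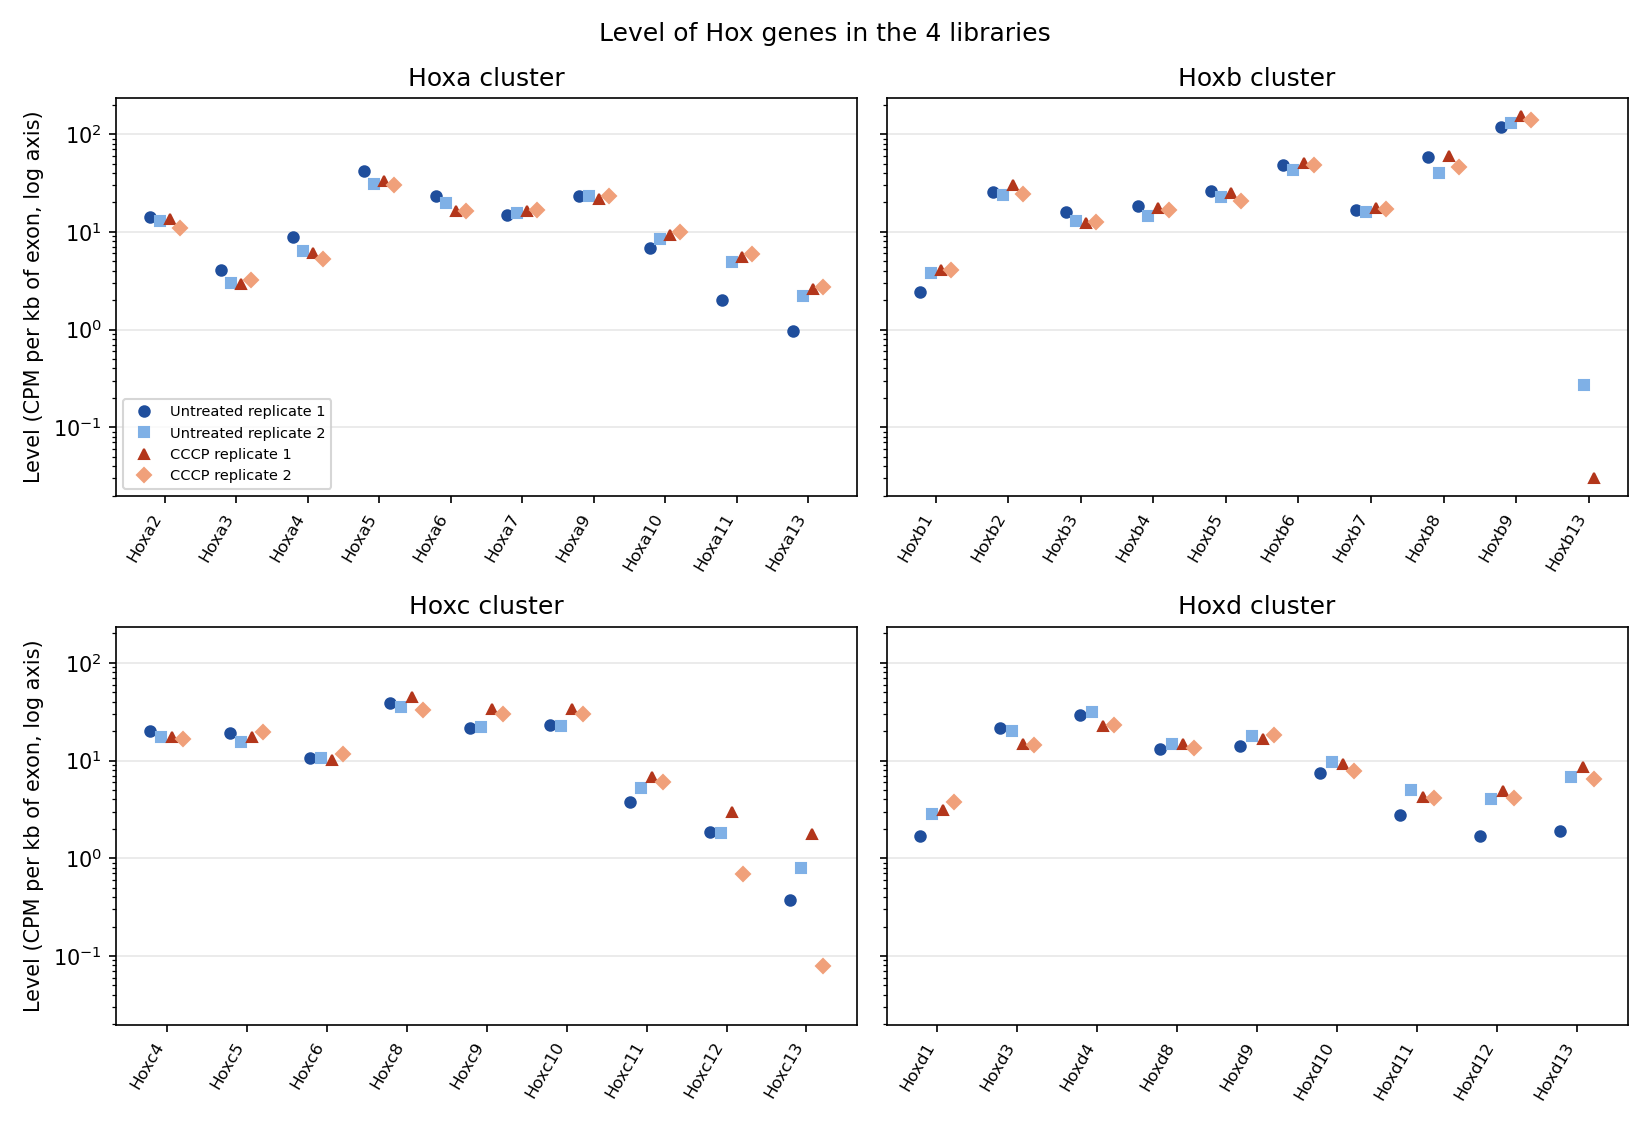
Level of Hox genes in CPM per kilobase of exon (log axis), 1 panel per cluster with genes in order of paralog number, and 1 point per library. Hoxb9 is highest at 119 to 153, the numbers 11 to 13 lie under 10 in every library, and the 2 libraries in which Hoxb13 had 0 counts are not drawn.

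Each cluster had its own profile along the paralog numbers. In the Hoxa cluster the highest levels were those of Hoxa5 (chromosome 6, 52201754 to 52204587) and Hoxa9 (chromosome 6, 52223097 to 52227370). Hoxa5, which patterns the neck and upper trunk, read 42.1 and 31.0 in the untreated and 33.3 and 30.1 in the CCCP libraries, so the groups overlapped. Hoxa9, a trunk gene that is also active in blood stem and progenitor cells, read 23.2, 23.3, 21.6 and 23.5, with no order between the groups. In the Hoxc cluster Hoxc8 (chromosome 15, 102990539 to 102994275), a thoracic gene, led with 38.5, 35.7, 45.0 and 32.6, followed by Hoxc10 (chromosome 15, 102966796 to 102971898), a gene of the lumbar level and hindlimb. The Hoxd cluster was led by low numbers instead, with Hoxd4 (chromosome 2, 74721978 to 74729160) at 29.3, 31.6, 22.8 and 22.9 and Hoxd3 (chromosome 2, 74711993 to 74748271) at 21.8, 20.02, 14.9 and 14.3. Both are genes of the neck region.

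Summed over members, the Hoxb cluster held 45.1% to 48.1% of the Hox level, Hoxa 16.9% to 20.2%, Hoxc 19.3% to 22.0% and Hoxd 13% to 16.5%. By paralog number, genes 4 to 6 held 28.2% to 34.8% and genes 9 and 10 held 30.5% to 36.8%. Most of the latter was Hoxb9 alone, at 119 to 153 of a summed level of 215 to 277. The anterior genes 1 to 3 held 10.8% to 12.4% and genes 7 and 8 held 17.9% to 20.1%. Genes 11 to 13 held 2.16% in untreated replicate 1 and 4.34% to 4.91% in the other libraries. Most of the Hox RNA of the explants thus came from paralogs 4 to 10 in all 4 libraries. Within the first paralog group, Hoxb1 and Hoxd1 had mean levels of only 3.61 and 2.85. Of paralog number 2, Hoxb2, which lies next to Hoxb1, stood at 25.9 and Hoxa2 at 12.9.

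**Figure D2:**
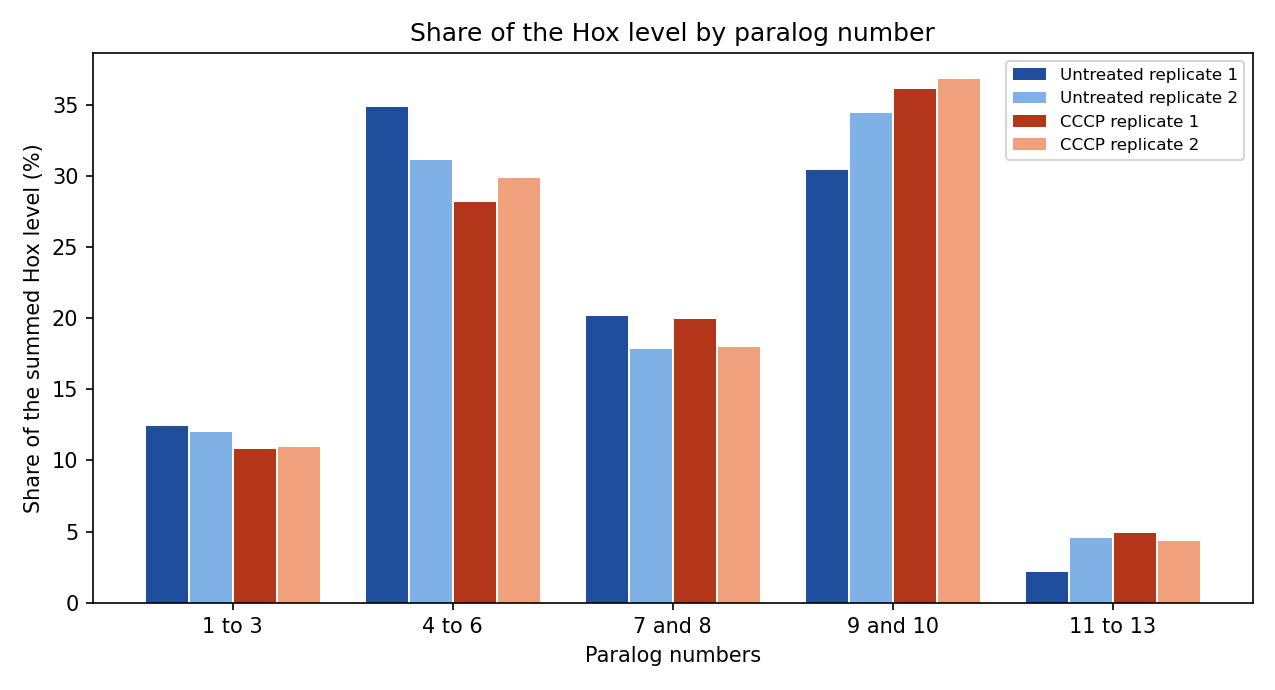
Share of the summed Hox level (%, from 0) held by genes of each range of paralog numbers, 1 bar per library. Genes 4 to 6 and 9 and 10 hold the largest shares, and the bar for genes 11 to 13 is 2.16% in untreated replicate 1 against 4.34% to 4.91% in the other 3 libraries.

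Anterior to the Hox domains lie the forebrain and midbrain, and their marker Otx2 had 4, 0, 0 and 2 counts. Of 8 forebrain and midbrain genes, Otx2, Six3 and En2 stayed under 1 CPM in all libraries, while Emx2, which the mesonephros also expresses, summed with the others to 44.4 to 56.3 CPM. At the posterior end the 6 tailbud genes summed to 10.4 to 15.2 CPM, with Fgf17 and Nkx1-2 under 1 CPM throughout. Of the 5 tested, 4 had a negative fitted log2 fold change of CCCP over untreated and Wnt3a a positive one (median -1.05). Tbx6 had 1.66 and 1.34 CPM in the untreated and 0.618 and 0.579 CPM in the CCCP libraries. Cyp26a1 had 2.70 and 2.43 against 1.17 and 0.992 CPM. T, at 0.499 and 2.65 against 0.474 and 1.05 CPM, and Nkx1-2, at 0.579 and 0.695 against 0.639 and 0.331 CPM, had overlapping groups. None of the 5 passed in edgeR with group as the sole term (smallest adjusted p 0.242), and Tbx6 had only 21 to 83 counts. The hindbrain gene Egr2 was listed at 0.772 to 1.55 CPM. All 3 hindbrain genes summed to 26.8 to 41.3 CPM. Other members had more, with 343 to 783 counts for En1, 311 to 513 for Lhx2 and 250 to 356 for the tailbud gene Wnt3a.

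The counting bears on some of these levels. Reads that touched more than 1 gene were dropped and strand was not used although the library kit keeps it, and 11 of the 39 members share exon bases with another annotated gene. The share was 38.8% of the exon bases for Hoxa3, 35.2% for Hoxa11, 23.6% for Hoxa10 and 18.3% for Hoxb2, and lower for the others. With the shared bases left out of the length, the mean level of Hoxa3 was 5.38 in place of 3.29 and that of Hoxa11 was 7.13 in place of 4.62. Hoxa10 then stood at 11.3 in place of 8.62 and Hoxb2 at 31.6 in place of 25.9. Hoxd10 and Hoxd11 share exon bases on the same strand, and a mature read there was assigned to neither.

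The 4 libraries were compared over the 38 tested Hox genes to see how alike their axial profiles were. Pearson's r of log2 CPM across these genes, which are not independent replicates, was 0.974 for the untreated pair and 0.935 for the CCCP pair. Pairs from different groups had values between 0.931 (untreated replicate 1 with CCCP replicate 2) and 0.984 (untreated replicate 2 with CCCP replicate 1). By this measure the most alike pair came from different groups. Over all 19837 genes tested the same values ran from 0.965 to 0.979. The median absolute log2 difference over Hox genes was 0.15 between the CCCP libraries and 0.30 between the untreated ones, against 0.21 and 0.28 over all genes tested. Between groups it was 0.18 and 0.19 for untreated replicate 2 and 0.36 and 0.37 for untreated replicate 1, so by this measure the CCCP pair was the most alike.

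The untreated libraries differed most at the posterior end of the clusters. Between the untreated libraries the median absolute log2 difference was 1.10 for the 8 tested genes of numbers 11 to 13, against 0.11 to 0.31 in the other ranges of number. In the CCCP pair the same range had 0.22, close to the 0.21 of numbers 1 to 3. Hoxd13 (chromosome 2, 74668225 to 74671603), the last gene of its cluster and a gene of digits, genitalia and hindgut, had 4.89 CPM in untreated replicate 1 and 17.3 in replicate 2, a 3.54-fold gap. In the CCCP libraries it had 22.2 and 16.7 CPM. Hoxd12 (chromosome 2, 74675013 to 74677705), its neighbour with a role in the distal limb, read 4.27 and 10.2 CPM in the untreated and 12.5 and 10.4 CPM in the CCCP libraries. Untreated replicate 1 was thus the low library, and the other 3 lay close together.

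Paralogs of other clusters had the same low library. Hoxa13 (chromosome 6, 52258853 to 52260880), which acts in the limb and the urogenital tract, had 1.26 and 2.86 CPM in the untreated and 3.44 and 3.58 CPM in the CCCP libraries, on 63 to 167 counts. Hoxa11 (chromosome 6, 52242105 to 52245810), a gene of the forearm level and the kidney, was added after its values were seen. It had 4.57 and 11.3 CPM in the untreated and 12.8 and 13.6 CPM in the CCCP libraries. Hoxc11 (chromosome 15, 102954526 to 102956701), active at the sacral level and in the hindlimb, read 3.42, 4.81, 6.26 and 5.57 CPM in that order of libraries. Untreated replicate 1 was the lowest library for 6 of the 8 tested genes of numbers 11 to 13, and for Hoxb1 and Hoxd1 at the other end. It was also lowest for 5 of the 7 genes of numbers 9 and 10. For 6 of the 10 genes of numbers 4 to 6 and 4 of the 8 of numbers 1 to 3 it was the highest.

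The end of the Hoxc cluster followed another order. Hoxc13 (chromosome 15, 102921131 to 102928814), a gene of the tail and of hair and nails, had 46 and 73 counts in the untreated and 210 and 7 counts in the CCCP libraries. In CPM these were 0.919, 1.95, 4.33 and 0.193. The 2 CCCP libraries differed 22.4-fold here. Hoxc12 (chromosome 15, 102936826 to 102938609) had 1.78 and 1.76 CPM in the untreated and 2.86 and 0.662 CPM in the CCCP libraries, a 4.33-fold gap between the latter on 139 and 24 counts. For both genes CCCP replicate 2 was lowest and CCCP replicate 1 highest, and the 2 genes are neighbours.

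**Figure D3:**
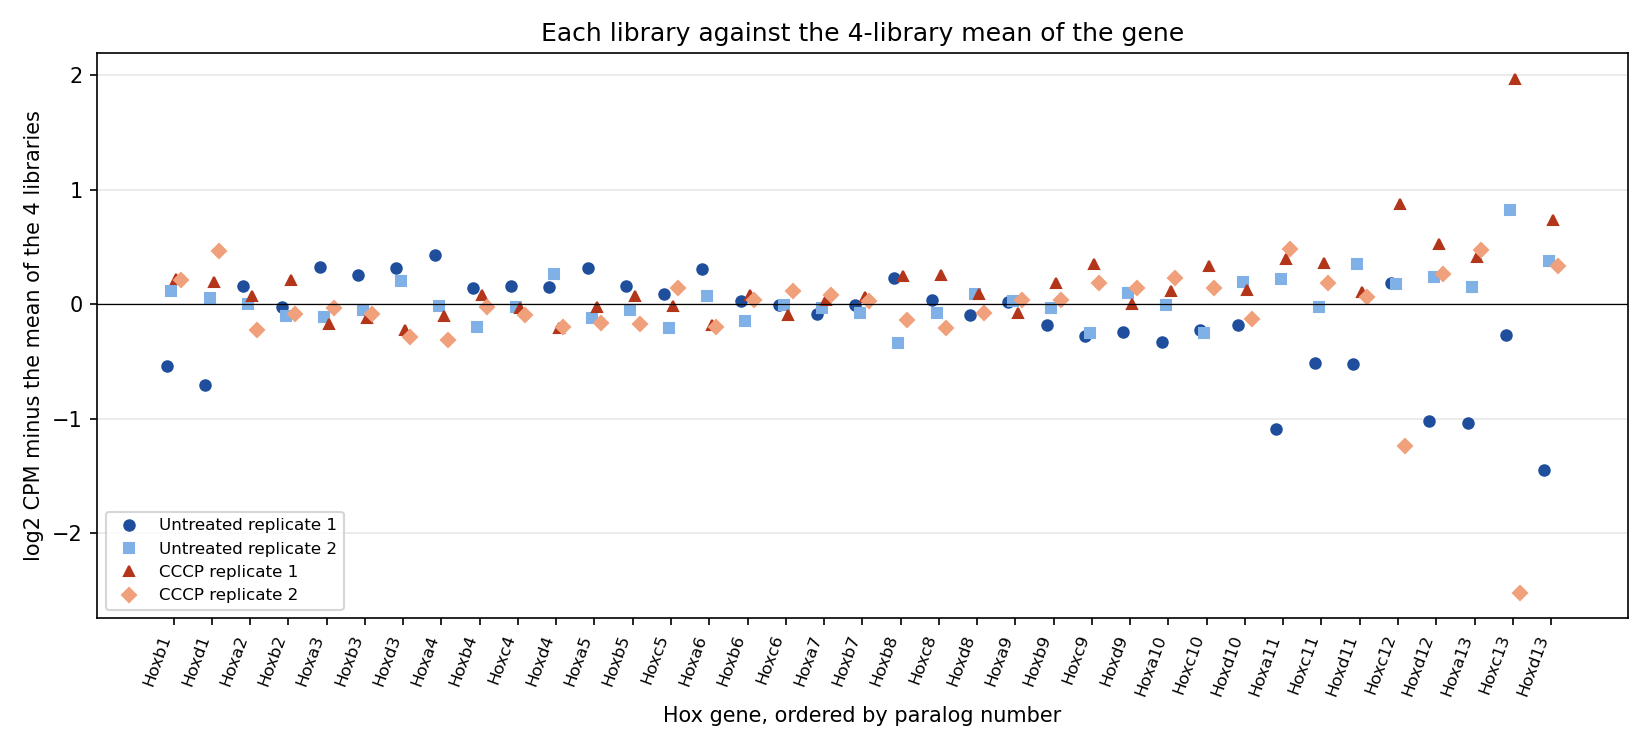
Log2 CPM of each library minus the mean of the 4 libraries, for Hox genes with a mean of at least 1 CPM, ordered by paralog number with 1 point per library. Untreated replicate 1 is low for most genes of numbers 11 to 13 (Hoxd13 at 4.89 CPM) and CCCP replicate 2 is low for Hoxc12 and Hoxc13.

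Markers of other tissues also differed between the libraries. The 8 limb bud genes summed to 110 CPM in untreated replicate 1 and to 150 to 160 CPM in the other 3 libraries, with no member at 0. Most of its gap to CCCP replicates 1 and 2 lay in Pitx1, a hindlimb gene, at 26.1 CPM against 67.1 and 64.5. In untreated replicate 2, Pitx1 stood at 37.9 CPM. The sums thus do not show that limb genes as a set were lower in untreated replicate 1 than with CCCP. Untreated replicate 1 was the lowest for 6 of the 8 and the highest for Tbx5 and Lmx1b, 2 limb patterning genes, at 30.8 against 16.1 to 21.3 CPM and at 26.6 against 21.0 to 23.9 CPM. The hindlimb gene Tbx4 had 5.37 CPM in untreated replicate 1 against 13.2 to 20.1 CPM elsewhere, and Shh, a signal of the posterior limb bud, the notochord and the gut, had 4.08 against 9.48 to 25.8 CPM. The 8 spinal cord genes summed to 502 CPM there against 591 to 672 CPM, with 7 of the 8 lowest in it. Most of that gap to the CCCP libraries lay in Tubb3, at 369 and 372 CPM without CCCP and 506 and 480 CPM with it. The gap to untreated replicate 2 lay mostly in Sox2, at 69.2 against 128 CPM. Not all lists were low in untreated replicate 1. All 5 hepatic genes were highest in it. Mesonephros genes summed to 324 CPM there against 233 to 296 CPM, with 5 of 8 highest and 1 lowest. The lists of lateral mesenchyme and paraxial mesoderm were mixed. Lateral mesenchyme genes summed to 3843 CPM against 2400 to 3247 CPM, mostly from the collagens Col1a1 and Col3a1, with 4 of 8 highest and 4 lowest in that library. Paraxial mesoderm genes summed to 160 against 177 to 234 CPM, with 4 of 8 lowest and 3 highest. The part of these tissues in the Hox values was not tested.

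The sequence before the start of some of these genes is shown for 5 members picked after their values were seen: Hoxd4 and Hoxa6, low in both CCCP libraries (values further on), and Hoxd12, Hoxd13 and Hoxa13, low in untreated replicate 1. RefSeq windows on GRCm38.p6 (the assembly of mm10) were at hand for 22 of the 39 genes, in 24 windows, and the 250 bases before the start are used. Letters searched on both strands were TTTATG (bound by Cdx factors, which activate Hox genes in the trunk), TGATNNAT (Hox with Pbx), TGACAG (Meis), AGGTCA (the core of a retinoic acid receptor site) and TATAAA (the TATA box). Capitals mark the matches. The windows are Hoxd4 at chr2:74721728-74721977 (plus strand), Hoxa6 at chr6:52208673-52208922 (minus strand), Hoxd12 at chr2:74674763-74675012 (plus strand), Hoxd13 at chr2:74667975-74668224 (plus strand) and Hoxa13 at chr6:52260881-52261130 (minus strand), each written 5′ to 3′ along the gene.
Hoxd4: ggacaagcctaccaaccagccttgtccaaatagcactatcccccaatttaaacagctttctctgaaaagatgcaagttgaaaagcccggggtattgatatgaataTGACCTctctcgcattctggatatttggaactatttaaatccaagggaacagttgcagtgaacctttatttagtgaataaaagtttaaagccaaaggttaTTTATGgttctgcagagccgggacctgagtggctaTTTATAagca
Hoxa6: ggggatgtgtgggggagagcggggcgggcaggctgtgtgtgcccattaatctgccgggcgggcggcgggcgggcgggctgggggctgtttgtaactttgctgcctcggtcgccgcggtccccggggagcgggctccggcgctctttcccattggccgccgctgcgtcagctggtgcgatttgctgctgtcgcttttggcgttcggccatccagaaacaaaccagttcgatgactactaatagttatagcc
Hoxd12: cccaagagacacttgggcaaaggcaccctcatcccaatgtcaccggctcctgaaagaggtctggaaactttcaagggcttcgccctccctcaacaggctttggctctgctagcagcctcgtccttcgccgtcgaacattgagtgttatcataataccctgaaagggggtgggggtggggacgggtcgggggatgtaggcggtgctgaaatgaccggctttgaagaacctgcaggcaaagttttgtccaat
Hoxd13: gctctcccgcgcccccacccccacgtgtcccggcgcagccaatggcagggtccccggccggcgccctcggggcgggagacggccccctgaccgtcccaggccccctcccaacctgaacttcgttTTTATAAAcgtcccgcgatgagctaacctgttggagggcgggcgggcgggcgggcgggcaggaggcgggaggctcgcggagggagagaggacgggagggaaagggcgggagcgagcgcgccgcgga
Hoxa13: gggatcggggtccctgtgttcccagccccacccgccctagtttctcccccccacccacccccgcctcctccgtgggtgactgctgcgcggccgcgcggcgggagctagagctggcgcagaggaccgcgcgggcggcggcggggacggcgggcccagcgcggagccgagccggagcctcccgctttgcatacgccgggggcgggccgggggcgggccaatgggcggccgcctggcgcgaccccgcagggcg

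Hoxd4 held an AGGTCA match on the opposite strand 145 to 140 bases before its start, a TTTATG match 45 to 40 bases before it and a TATAAA match on the opposite strand 10 to 5 bases before it. Hoxd13 held 2 overlapping TATAAA matches, 1 on each strand, between 126 and 119 bases before its start. No match lay in the windows of Hoxa6, Hoxd12 and Hoxa13, which says only that these letters are not in these windows. The windows differed in base composition, from 40.4% G and C in Hoxd4, the lowest of the 24, to 80.0% in Hoxa13, the highest. Over the 24 Hox windows the median was 58.6% G and C with 12.5 CG pairs, against 52.4% and 6.0 over 32851 windows of all genes. TTTATG was in 5 of the 24 Hox windows (20.8%) and in 10.8% of all windows, AGGTCA in 6 (25.0%) and 14%, and TGATNNAT in 4 (16.7%) and 7.68%. TGACAG was in 2 (8.33%) and 15.9%, and TATAAA in 4 (16.7%) and 12.4%. These are descriptions of letters and not of bound sites.

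A weighted mean of the paralog number, with the level as the weight, summarises the profile of a library. Over the 4 clusters it was 6.66 and 6.92 in the untreated and 7.13 and 7.05 in the CCCP libraries. For the Hoxd cluster it was 6.04 and 6.72 against 7.23 and 7.01, for Hoxa 5.92 and 6.32 against 6.34 and 6.51, and for Hoxc 7.5 and 7.67 against 8.0 and 7.74. The Hoxb cluster, without members between numbers 9 and 13, gave 6.80 and 6.93 against 6.97 and 6.96. In each cluster both CCCP values lay above both untreated values. The gap between the 2 untreated libraries was about as wide as the gap between groups in Hoxa, Hoxb and Hoxd and in the 4 clusters combined.

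CCCP and untreated explants were then compared for each Hox gene, within a study of how mitochondrial activity bears on blood stem cells of the embryo. No Hox gene passed an adjusted p-value of 0.05 in the quasi-likelihood test of edgeR (Benjamini-Hochberg over all genes), and neither did any other gene (0.0% of 19837 tested). At an unadjusted p under 0.05 there were 5 of 38 Hox genes, or 13.2%, against a background of 14.6% of all genes. Of these 5, 2 were higher in CCCP (background 5.45%) and 3 lower (background 9.16%). The groups did not overlap for 19 of the 38, or 50%, against 48.8% of all genes. Both CCCP libraries were above both untreated ones for 13 Hox genes, or 34.2% (background 24.0%), and below them for 6, or 15.8% (background 24.8%). The share over both directions together lies near the background, while the split by direction was less even than over all genes. DESeq2 on the same genes called 1 Hox gene, Hoxc9, where 2.99% of all genes were called, and edgeR without the filter on low counts called 2, Hoxc9 and Hoxd13, where 3.43% were called.

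Fitted log2 fold changes were positive for 26 and negative for 12 of the 38 genes, with a median of 0.10 against -0.01 over all genes tested. The split moved with the scaling. It was 22 to 16 without library scaling, which shifts the median of all genes to -0.07, and 20 to 18 once the trend with exon length was removed from each library. With the trend with GC content removed instead it was 17 to 21. By paralog number the median was -0.01 for 1 to 3, -0.12 for 4 to 6, 0.09 for 7 and 8, 0.22 for 9 and 10, and 0.67 for 11 to 13. All 8 tested genes of numbers 11 to 13 had positive values, but leaving out untreated replicate 1 gave this range a median of 0.18, and leaving out replicate 2 one of 1.40. Hoxc12, at 0.01, turned negative without library scaling and with either trend removed, and Hoxd11, at 0.11, was -0.02 with the GC trend removed. For numbers 7 and 8 the median was -0.02 with the length trend removed and -0.03 with the GC trend removed, each with 1 of 5 genes positive in place of 5, and -0.06 without CCCP replicate 1. For numbers 4 to 6 it was 0.02 without untreated replicate 1.

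**Figure D4:**
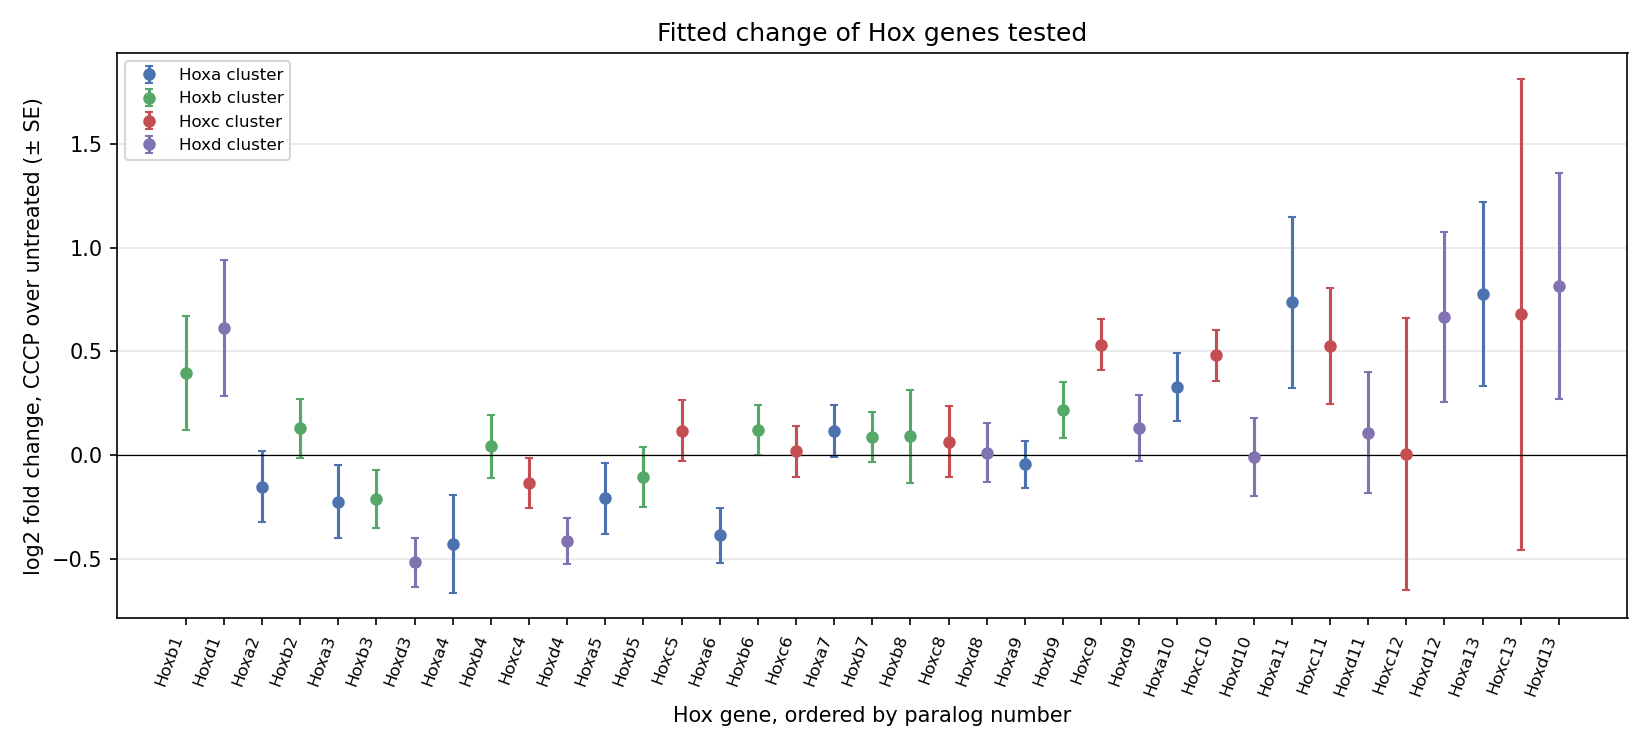
Log2 fold change of CCCP over untreated with its standard error (edgeR) for Hox genes tested, ordered by paralog number and coloured by cluster. Values run from -0.52 for Hoxd3 to 0.82 for Hoxd13, the bars widen for numbers 11 to 13, and no gene passed the adjusted threshold in this fit.

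Hoxc9, Hoxc10, Hoxa10 and Hoxc11 led the genes that were higher with CCCP. None of them passed in edgeR with group as the sole term and the filter on low counts. Hoxc9 (chromosome 15, 102977032 to 102984444), a thoracic gene, had 37.1 and 37.7 CPM in the untreated and 57.3 and 50.9 CPM in the CCCP libraries. Both CCCP libraries were higher, by 0.53 on the log2 scale (SE 0.123, edgeR adjusted p 0.204, DESeq2 adjusted p 0.0499, edgeR without the filter adjusted p 0.0336). Hoxc10 lies beside it and had 44.2 and 43.2 CPM against 64.9 and 56.9 CPM. The log2 fold change of Hoxc10 was 0.48 (SE 0.123, edgeR adjusted p 0.227), and again the groups did not overlap. Without any 1 library the values stayed between 0.45 and 0.63 for Hoxc9 and between 0.39 and 0.58 for Hoxc10.

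Hoxa10 (chromosome 6, 52231197 to 52240854), a gene of the lumbar level and the reproductive tract, had 21.4 and 26.7 CPM in the untreated and 29.0 and 31.3 CPM in the CCCP libraries. For Hoxa10 the log2 fold change was 0.33 (SE 0.163, edgeR adjusted p 0.402). Hoxc11, with its values above, had 0.53 (SE 0.279, edgeR adjusted p 0.426), or 0.31 without untreated replicate 1 and 0.82 without untreated replicate 2, and 0.34 with the length trend removed. Hoxa10 stood at 0.19 when untreated replicate 1 was left out and at 0.53 when replicate 2 was. Both thus depended on which untreated library was kept.

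Hoxd3, Hoxd4, Hoxa6 and Hoxa4 led the genes that were lower with CCCP, and none of them passed in that fit. Hoxd3 had 63.1 and 58.1 CPM in the untreated and 43.3 and 41.4 CPM in the CCCP libraries, a log2 fold change of -0.52 (SE 0.117, edgeR adjusted p 0.202). Hoxd4 had 75.0 and 80.8 CPM against 58.4 and 58.6 CPM, with -0.41 (SE 0.112, edgeR adjusted p 0.236). The 2 genes are neighbours with overlapping spans, and both CCCP libraries were low for each. Leaving out any 1 library kept the values between -0.54 and -0.45 for Hoxd3 and between -0.46 and -0.33 for Hoxd4.

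Hoxa6 (chromosome 6, 52204858 to 52208672), a gene of the thoracic level, had 52.1 and 44.1 CPM in the untreated and 37.0 and 36.7 CPM in the CCCP libraries (log2 fold change -0.39, SE 0.133, edgeR adjusted p 0.293), or -0.25 without untreated replicate 1. Hoxa4 (chromosome 6, 52189682 to 52191703), a gene of the neck region, had 13.4 and 9.84 against 9.29 and 8.02 CPM, with -0.43 (SE 0.235, edgeR adjusted p 0.440). It was -0.17 without untreated replicate 1. Over its 9 members the Hoxd cluster held both the lowest and the highest fitted value of the family, those of Hoxd3 at one end and of Hoxd13 at the other. Hoxd13 had a log2 fold change of 0.82 (SE 0.543, edgeR adjusted p 0.512), but only 0.18 without untreated replicate 1 and 2.03 without untreated replicate 2.

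The 5 genes of highest level had fitted values between -0.21 and 0.22, while Hoxc10, Hoxd4 and Hoxc9, described above, come next in level. Hoxb9 was at 338 ± 24.2 CPM in the untreated and 393 ± 28.4 CPM in the CCCP libraries (SD, n = 2 in each group), with a log2 fold change of 0.22 (0.14 with the length trend removed) and an edgeR adjusted p of 0.482. Both CCCP libraries lay above both untreated ones. Hoxb8, Hoxc8, Hoxa5 and Hoxa9 had log2 fold changes of 0.09, 0.07, -0.21 and -0.04, with edgeR adjusted p-values from 0.593 to 0.884 and overlapping groups. Hoxa13 and Hoxd12 stood at 0.78 and 0.66 (edgeR adjusted p 0.453 and 0.485), and these dropped to 0.30 and 0.17 without untreated replicate 1. Without untreated replicate 2 they were 1.51 and 1.45. Hoxc13, at 0.68 with an SE of 1.14, was -2.86 without CCCP replicate 1 and 1.61 without CCCP replicate 2.

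Hox proteins bind DNA together with the TALE homeodomain cofactors of the Pbx, Meis and Pknox families, and all 9 were tested. None passed in edgeR with group as the sole term, 0 of 9 reached an unadjusted p under 0.05 (background 14.6% of all genes), and their median log2 fold change was 0.06. Meis2 had 300 and 276 CPM in the untreated and 291 and 261 CPM in the CCCP libraries, so the groups overlapped. Pbx4 was the least abundant, at 3.34 to 4.06 CPM. Meis1, the partner of Hoxa9 in blood cells, had 139 and 131 against 145 and 130 CPM. Summed cofactor CPM ran from 1208 to 1343 and overlapped between groups.

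Of 30 regulators of Hox genes (Cdx factors, retinoic acid receptors and synthesis, Polycomb and Trithorax proteins and others), 28 were tested. None passed in edgeR with group as the sole term and the filter on low counts. At an unadjusted p under 0.05 in that fit, 2 were higher (background 5.45% of all genes) and 3 lower (background 9.16%). The median log2 fold change of the 28 was -0.03. Kmt2a, the methyltransferase that keeps Hox genes active, had 258 and 197 CPM in the untreated and 153 and 145 CPM in the CCCP libraries (log2 fold change -0.61, SE 0.158, edgeR adjusted p 0.228). Suz12, a subunit of the Polycomb complex that keeps Hox genes silent, had 117 and 127 against 76.7 and 91.7 CPM (log2 fold change -0.53, SE 0.135, edgeR adjusted p 0.223). Both CCCP libraries were low for both genes. Kmt2a was -0.23 with the length trend removed and -0.39 without untreated replicate 1, and Suz12 was -0.11 with the GC trend removed. edgeR without the filter called 4 of 30 regulators lower, Kmt2a, Suz12, Kmt2d and Cdx4 (adjusted p 0.0042 for Kmt2a and 0.0217 for Suz12), where 3.43% of all genes were called. Of 28 regulators DESeq2 called Kmt2a (adjusted p 0.0431), where 2.99% of all genes were called.

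Higher in both CCCP libraries were Rarg, a retinoic acid receptor, with 52.5 and 47.3 against 65.5 and 66.5 CPM, and Men1, the menin partner of Kmt2a, with 79.6 and 86.4 against 101 and 106 CPM. Their log2 fold changes were 0.40 and 0.31, with edgeR adjusted p-values of 0.251 and 0.307, and they were 0.24 and 0.16 with the GC trend removed. Among the Cdx factors, Cdx1 had at most 2 counts per library. Cdx4 had 0, 30, 0 and 1 counts, so all but 1 of its reads came from untreated replicate 2. The RNA-binding timing factor Lin28b had 18.9 and 40.9 CPM in the untreated and 13.6 and 26.1 CPM in the CCCP libraries, higher in replicate 2 of each group. Cdx2 had 0.439 and 2.94 CPM in the untreated and 1.07 and 1.87 CPM in the CCCP libraries, lowest in the same library as most genes of numbers 11 to 13.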

How the data were processed

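Per the file headers, the authors counted reads per gene with featureCounts 2.0.3 on the exons of the mm10 NCBI RefSeq annotation, without a strand option, without counting pairs as fragments and without multi-mapping or multi-overlap reads. The deposited values are raw counts. FastQC, HISAT2, SAMtools and Subread are named in the submitters' processing notes, and their settings are not given in the sources used here. The exon length per gene comes from the same deposited tables (another unit, in bases).

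Counts were tested with edgeR 4.0.16 in R 4.3.3 (glmQLFit and glmQLFTest, TMM scaling, filterByExpr with a minimum count of 10 and a minimum total of 15, group as the sole term, two-sided, Benjamini-Hochberg over 19837 genes, threshold 0.05). The standard error is the log2 fold change divided by the square root of F. CPM used TMM scaling, and log2 CPM a prior count of 2. DESeq2 1.42.0 was an alternative. Length and GC trends were removed per library by lowess offsets (span 0.3), with GC content from GENCODE transcripts of the same build. The fit was tested on simulated data. Named genes were, per cluster, the 2 highest levels, the highest paralog number that reached 1 CPM in all libraries and the highest that did not, then the 4 smallest p-values in each direction, the 2 smallest in each direction among cofactors and regulators, and the 4 genes of at least 1 CPM whose replicates differed most. Members and lists were chosen with earlier results of these data known. With 2 libraries per group, an exact test of a single gene was not used. Single values of some genes are not reported here, and these genes are not drawn in the plots by gene.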

Additional observations from a re-analysis of the deposited data

How the results depend on the processing

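The count of called genes was 0 over all genes and 0 among Hox genes in the test as reported, and stayed 0 for both with RLE scaling, without library scaling, and with the length or the GC trend removed. DESeq2 called 594 genes (2.99%) and 1 of 38 Hox genes (Hoxc9), and edgeR without the filter 1107 genes (3.43%) and 2 of 39 Hox genes (Hoxc9, Hoxd13). With the replicate block edgeR called 2118 genes (10.7% of 19837) and 5 of 38 Hox genes (Hoxa11, Hoxc9 and Hoxc10 higher, Hoxd3 and Hoxd4 lower). Against the same 10.7%, it called 6 of 28 regulators (Rarg higher, Kmt2a, Kmt2d, Suz12, Kat6a and Lin28b lower). Removing the length trend in the blocked fit gave 1242 of 19837 genes and 4 of 38 Hox genes (Hoxc9 higher, Hoxa6, Hoxd3 and Hoxd4 lower). Removing the GC trend there gave 926 of 19837 and 4 of 38 (Hoxc10 higher, Hoxa6, Hoxd3 and Hoxd4 lower). Of the 28 regulators, the blocked fit with the length trend removed called 5 (Cbx2, Men1, Rarg and Ring1 higher, Suz12 lower). With the GC trend removed instead it called 2 (Kmt2a and Kmt2d, both lower), so the direction among called regulators moved with the correction. The blocked fit with the length trend removed also called 1 of 9 cofactors (Pbx2, higher) and 1 of 15 antisense and intergenic transcripts (Hoxaas3, lower). Of 14 genes that flank the clusters, the block alone called Lnpk (lower), and with the GC trend removed Hibadh and Mtx2 (higher). Both fits with the GC trend removed were chosen after seeing the data. No label says what a replicate number marks. Deviations of same-numbered libraries from their group means correlated at 0.36 over all genes and at -0.19 over the Hox genes, and 2 pairs are too few to treat as a pairing. Leaving out 1 library gave 10 to 46 called genes and 0 called Hox genes. The lone library of a group is then assumed to vary like the other group.

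Hox genes with an unadjusted p under 0.05 numbered 5, against 10 without the filter, 13 with the replicate block, 15 when the block was joined to the length correction, 11 when it was joined to the GC correction, and 3 to 18 with 1 library left out (18 without untreated replicate 2, 3 without either CCCP library). The Hox median of 0.10 was 0.043 without library scaling, 0.024 on removing the length trend (0.0096 with the block), -0.026 on removing the GC trend (-0.026 with the block), and 0.048 to 0.12 with 1 library left out. Signs turned for Hoxc12 without library scaling (-0.040), under the replicate block (-0.25), on removing the length trend (-0.16, or -0.45 with the block) and on removing the GC trend (-0.19, or -0.42 with the block). They also turned for Hoxb8 with the GC trend removed (-0.076, or -0.064 with the block), for Hoxc8 with the length trend removed (-0.031, or -0.046 with the block), and for Hoxc13 under the block when joined to the length (-0.086) or GC (-0.11) correction. With 1 library left out the ranges were -1.41 to 0.70 for Hoxc12, -2.86 to 1.61 for Hoxc13, -0.13 to 0.41 for Hoxb8, -0.18 to 0.29 for Hoxc8, -0.38 to 0.041 for Hoxa5 and -0.093 to 0.019 for Hoxa9. The cause was not tested. Depth limits Hoxb13, at 0 to 14 counts, where 3 counts correspond to 0.0614 to 0.0803 CPM, and intervals for counting error would be too narrow because both reads of a pair were counted.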

Other observations

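Antisense and intergenic transcripts of the Hox clusters were listed as well. Of 22 names, 19 were in the files and 15 were tested, none passing in edgeR with group as the sole term. At an unadjusted p under 0.05 there was 1 member, Hoxaas3, lower in CCCP (background 9.16% of all genes). The median log2 fold change was -0.32, which is the value of Mir615, a microRNA gene with 6 to 27 counts. Hoxaas3, antisense in the Hoxa cluster, had 6.29 and 5.19 CPM in the untreated and 3.79 and 3.20 CPM in the CCCP libraries, so the groups did not overlap. Hoxa11os, antisense to Hoxa11, had 4.33 and 16.0 CPM in the untreated and 15.2 and 15.3 CPM in the CCCP libraries, and untreated replicate 1 was its low library, as it was for Hoxa11. Strand was not used in counting, and reads in the bases this pair shares were assigned to neither gene. Hottip, at the end of the Hoxa cluster, had 20 and 23 counts against 55 and 34 counts. Hotair, in the Hoxc cluster between Hoxc11 and Hoxc12, had 72 and 82 against 159 and 59 counts, or 1.44 and 2.19 against 3.28 and 1.63 CPM. Its highest library was CCCP replicate 1, as for Hoxc12 and Hoxc13. Its lowest in CPM was untreated replicate 1, unlike for those genes. The microRNA genes Mir196a-1 and Mir196b had 0 counts in all libraries, and Mir10a and Mir10b had 5 to 30 counts, in libraries that were selected for poly(A) and are not suited to mature microRNAs.

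Genes that flank the clusters were tested for 14 of 17 names, with a median log2 fold change of 0.04. In edgeR with group as the sole term 0 passed, and 2 were lower at an unadjusted p under 0.05 (background 9.16% of all genes). These were Lnpk, beside the Hoxd cluster, with 62.1 and 65.2 CPM in the untreated and 41.5 and 47.8 CPM in the CCCP libraries, and Hnrnpa3, with 183 and 184 against 143 and 147 CPM. Evx2, next to Hoxd13, had 4.51 and 5.70 CPM against 4.59 and 5.62 CPM and did not share the low value of Hoxd13 in untreated replicate 1. Evx1, next to the end of the Hoxa cluster, had 3.16 and 5.67 against 6.12 and 3.34 CPM. Pitx1, a hindlimb gene, had 26.1 and 37.9 CPM against 67.1 and 64.5 CPM, or 1.04 on the log2 scale (edgeR adjusted p 0.156), and DESeq2 and edgeR without the filter called it.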
